A study of Homo sapiens with 5 samples.

Results

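The regions described here are the p53-specific peaks of HCT116 cells, a human colon cancer cell line. They are the peaks of the p53-CPT library that had no bp in common with a peak of the p53-KO library. Of 9211 p53-CPT peaks, 3600 met this rule, which is 39.1% of the list. The share was 63.6% where only peaks with a clonal fold change, a measure of stacked tags, of at most 1.2 were taken from both lists. That filter also removed p53-KO peaks, which raises the share. It counted 3821 peaks as p53-specific, whereas 3149 of the 3600 had such a value. The lists of all 5 libraries together held 123989 peaks. The other 5611 p53-CPT peaks overlapped a p53-KO peak and are called shared peaks. On chromosomes 1 to 22, X and Y there were 3550 p53-specific and 5532 shared peaks, and sequence and gene annotation were read for these.

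Both libraries were made by chromatin immunoprecipitation with an antibody against p53, followed by sequencing (ChIP-seq). The p53-CPT library came from cells with wild-type p53 (p53-WT) that received 1.5 μM of camptothecin, and the p53-KO library came from p53-knockout cells that received DMSO. Both treatments lasted 4 h. Chromatin was crosslinked for 45 min by DSG and then for 10 min by formaldehyde. There was 1 library for each condition, so every comparison below is between 2 libraries. Genotype and treatment both differed between them and cannot be told apart. No p53 precipitate of untreated p53-WT cells or of treated p53-KO cells was analysed here.

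p53 is a transcription factor that is kept scarce in unstressed cells by MDM2, an E3 ubiquitin ligase that is itself a p53 target. Camptothecin traps topoisomerase I on DNA and so causes breaks at replication forks, after which p53 is stabilised. It binds DNA as a tetramer. Its response element is a pair of decamers, each of which runs purine, purine, purine, C, A or T, A or T, G, pyrimidine, pyrimidine, pyrimidine. Genes next to such elements act in cell cycle arrest, apoptosis, DNA repair and metabolism.

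The sequences below are the best matches inside some of the strongest p53-specific peaks and inside peaks of well-studied targets, and they show how far these sites departed from the consensus. Each was read from the GRCh37 (hg19) reference, plus strand, with the 4 core bases of each decamer in capitals.
THSD4: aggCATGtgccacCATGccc
CDKN1A, distal: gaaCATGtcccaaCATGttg
IER5: aggCATGcccgggCATGtct
TGFA: gaaCATGcccaggCATGtct
ALOX5: gaaCATGtcagagCATGtgg
MAP2K6: ctgCATGtcagaaCATGccc
METRNL: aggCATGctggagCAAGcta
GADD45A: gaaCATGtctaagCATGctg
GDF15: agaCCTGcccggaCATGtcc
GSN: gaaCATGcagagaCATGcct
IGFL3: gggCCTGttcaggCATGcca
MDM2: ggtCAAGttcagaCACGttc
BBC3: ggaCAAGtcaggaCTTGcag
BAX: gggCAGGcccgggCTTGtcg
RASGEF1B: tgcCAATtttatgCAAGcta
SORL1: aagCCTGttctctCTCTctc
The elements of the IER5 and TGFA peaks matched the consensus with 0 mismatches. Those of GADD45A and GDF15 had 1 mismatch, and those of CDKN1A, METRNL, GSN, IGFL3, MDM2 and BAX had 2. The elements of THSD4, ALOX5, MAP2K6 and BBC3 had 3 mismatches. The last 2 sequences are the best matches in strong peaks without an element, with 5 mismatches in the RASGEF1B peak and 6 in the SORL1 peak.

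Among the strongest p53-specific peaks with an element at the centre was one that lay 2259 bp upstream of the transcription start site (TSS) of CDKN1A, which encodes the cyclin-dependent kinase inhibitor p21. The central 100 bases of that peak (chr6:36644182-36644281, hg19) are shown with the element in capitals.
CDKN1A distal peak: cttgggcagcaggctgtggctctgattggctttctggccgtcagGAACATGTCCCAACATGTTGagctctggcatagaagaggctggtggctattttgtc
The centre of the element was 3.5 bp from the peak centre. For contrast, the central 100 bases of the RASGEF1B peak (chr4:82541262-82541361) are a run of short GA repeats.
RASGEF1B peak: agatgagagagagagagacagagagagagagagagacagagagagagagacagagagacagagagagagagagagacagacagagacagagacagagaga

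The p53-specific peaks were weaker than the shared ones. Peak strength is the deposited normalized tag count, scaled by the authors to a library of 10000000 tags, and its unit is called normalized tags here. The p53-CPT library held 3169743 tags, so 1 tag was worth 3.15 normalized tags, and the p53-KO library held 1984941 tags, so 1 tag was worth 5.04. The median of the 3600 p53-specific peaks was 31.5 (quartiles 22.1 and 50.5), and their range was 18.9 to 1186.2. The median of the 5611 shared peaks was 50.5 (quartiles 31.5 and 82). A weak peak is more easily missing from the list of the smaller p53-KO library, so the rule by itself gathers weak peaks. How much of the difference in strength comes from this was not tested. At the shared sites the signal was not higher in the p53-CPT library: the median of the p53-KO peaks there was 75.6, the median ratio of p53-CPT to p53-KO was 0.668, and 4774 of 5611 sites (85.1%) were higher in p53-KO.

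**Figure D1:**
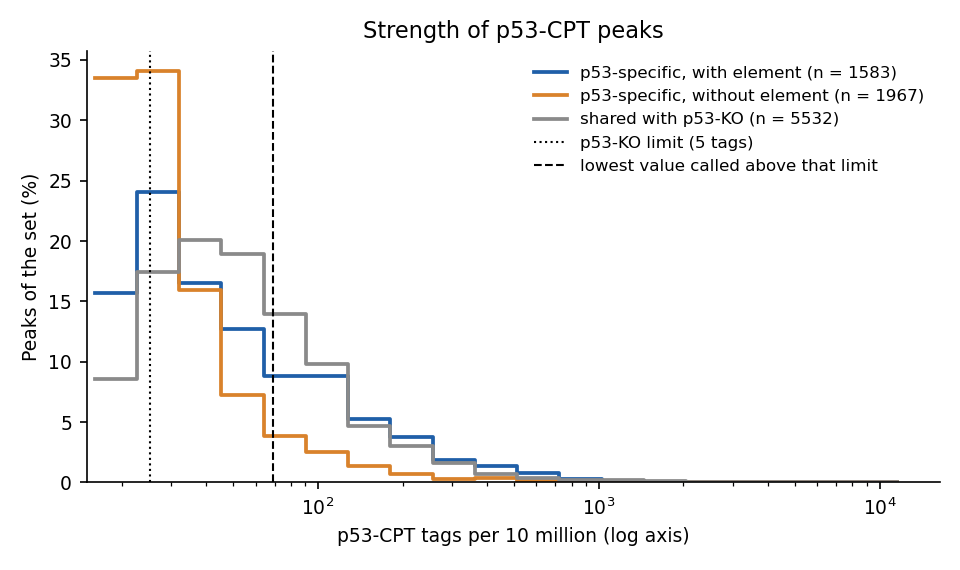
Share of peaks (vertical axis, %) by p53-CPT tags per 10000000 (horizontal log axis) for p53-specific peaks with an element, p53-specific peaks without one, and shared peaks. The dotted line marks 25.2, the p53-KO limit of 5 tags, and the dashed line marks 69.4, the lowest value called above that limit; most p53-specific peaks without an element lie left of the dashed line.

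A site that is missing from the p53-KO list need not have been empty. The header of that list gives a threshold of 6 tags, so 5 tags, or 25.2 normalized tags, were taken as the p53-KO limit. This limit is approximate. The lowest deposited score in the p53-KO list was 6, whereas its weakest listed peaks held 5 tags by normalized tag count. The threshold therefore followed the score, and a listed p53-KO peak can hold as few tags as the limit. The p53-KO list also left out 582 candidate peaks whose tags were stacked on too few positions and 1113 that did not stand above their surroundings, and such sites could hold more than this limit. For each p53-specific peak, the ratio of its tags to this limit was given an exact conditional 95% interval, which covers counting error only. The lower bound was above 1 for 653 of 3600 peaks (18.1%), which were those with 22 tags or more. Their median was 113.6 normalized tags. For the other 2947 peaks, with a median of 28.4, the lists could not show whether the libraries differed. The lists do not give the p53-KO tags at unlisted sites, so each peak was compared with the limit only. With tags taken from the score, 573 of 3600 peaks (15.9%) were above the limit. With the limit set at 6 tags, 557 (15.5%) were.

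The p53 element was the clearest feature of the p53-specific peaks. A match to the pair of decamers with no spacer and at most 3 mismatches was found in 1583 of 3550 p53-specific peaks, or 44.6% (95% Wilson interval 43.0 to 46.2). It was found in 257 of 5532 shared peaks, or 4.65%, in 4.69% of all p53-KO peaks, and in 7.15% of sequences of the same width 1000 bp from the p53-specific peaks. With a stricter match the contrast was wider. A match with 0 mismatches was present in 181 p53-specific peaks (5.10%), in 0 shared peaks and in 0 flanking sequences. At most 1 mismatch was found in 570 p53-specific peaks (16.1%), against 1 shared peak and 0.056% of flanking sequences. Among the 644 peaks above the p53-KO limit on these chromosomes, 475 (73.8%) had an element, and among those not above it 38.1% had one.

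Peaks with closer matches were stronger. The median strength was 63.1 normalized tags for peaks with 0 mismatches, 53.6 with 1, 37.9 with 2, 31.5 with 3 and 28.4 with 4. In the same direction, the share of p53-specific peaks with an element was 30.5% among those of 6 to 8 tags, 40.6% at 9 to 14 tags, 60.8% at 15 to 29 tags and 77.4% at 30 tags or more. Shared peaks of the same tag numbers held it in 4.1%, 4.86%, 4.60% and 4.78%, so their share did not follow strength. The share of p53-CPT peaks that were p53-specific fell over these classes from 63.5% to 39.9% and 23.3%, and was 28.9% in the strongest class.

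**Figure D2:**
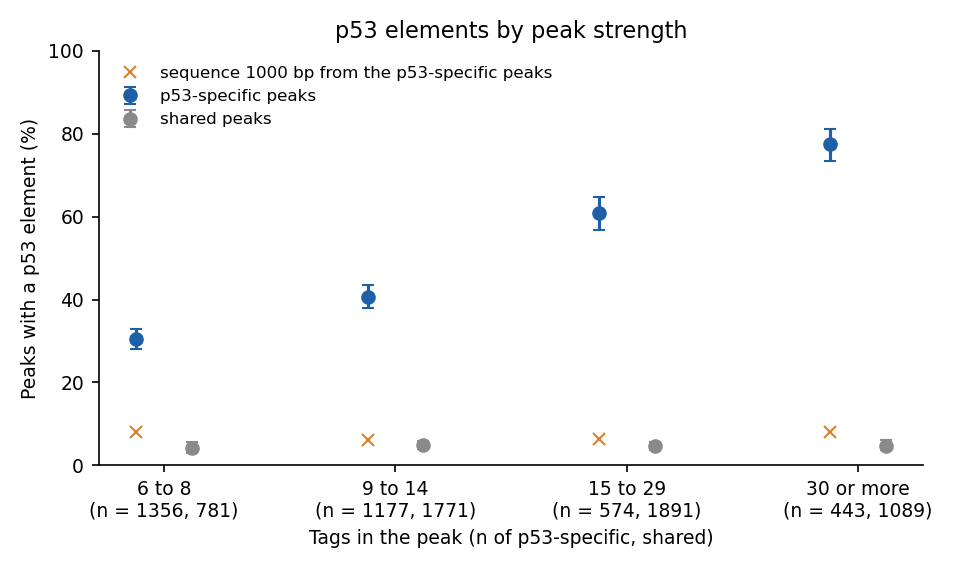
Share of peaks with a p53 element (vertical axis, %, bars are 95% Wilson intervals) in 4 classes of tag number (horizontal axis) for p53-specific peaks, shared peaks and sequence 1000 bp away (crosses). Only the p53-specific points rise, from 30.5% to 77.4%, while the shared points stay between 4.1% and 4.86%.

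The elements lay at the peak centres. The median distance between the centre of the element and the centre of the peak was 12.5 bp over all 1583 p53-specific peaks with an element, and 1200 of them (75.8%) were within 25 bp. Above the p53-KO limit the median was 7.5 bp, and 443 of 475 (93.3%) were within 25 bp. In shared peaks the median distance was 92.5 bp and 2 of 257 elements (0.778%) were within 25 bp. The search used the whole peak and took the nearest match only where several matched equally well.

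**Figure D3:**
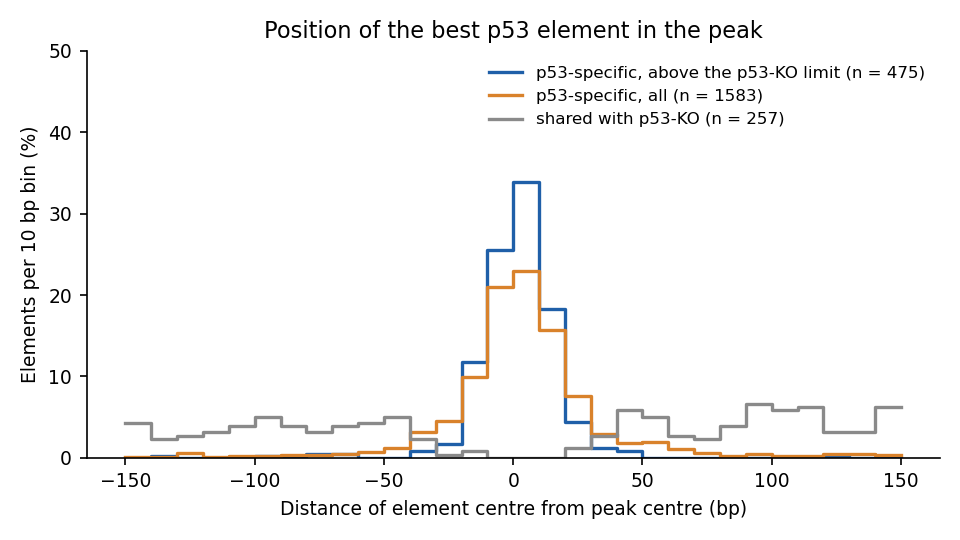
Distance of the best element's centre from the peak centre (horizontal axis, bp; negative is to the left on the plus strand) as a percentage of elements per 10 bp bin (vertical axis) for p53-specific peaks above the p53-KO limit, all p53-specific peaks and shared peaks. The p53-specific elements pile up at 0, with 93.3% of those above the limit within 25 bp, and the shared ones do not.

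Within the elements the C and G of the cores were the best kept. The letters CATG formed the core of 60.3% of the decamers in p53-specific peaks, against 17.5% in the flanking matches and 15.4% in shared peaks. Both decamers carried CATG in 575 of 1583 elements (36.3%), as in CDKN1A, IER5 and TGFA above. The C and the G of both cores were intact in 86.5% of elements in p53-specific peaks and in 21.3% of the flanking matches. Counted from the outer edge of a decamer, the base furthest out was mismatched in 18.0% of arms, the next in 12.2%, the third in 5.18%, the core C or G in 3.90% and the core A or T in 5.81%. In the flanking matches that C or G was the most often mismatched position, at 30.1%.

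A pair of decamers with a spacer was less common than a pair without one. With at most 2 mismatches, the pair without a spacer was present in 32.2% of p53-specific peaks and in 0.563% of flanking sequences. With spacers of 1 to 13 bases, a pair was present in 2.14% to 6% of p53-specific peaks and in 0.563% to 1.27% of flanking sequences. The highest share in p53-specific peaks was at a spacer of 10 bases, the length of another decamer. Peaks with 3 adjacent decamers are counted there too. Of the 1967 p53-specific peaks without an element, 213 (10.8%) had such a spaced pair, against 7.89% of flanking sequences without an element.

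The deposited focus ratio, which is the fraction of a peak's tags that lie on the expected side of its centre for their strand, was lower in p53-specific than in shared peaks. Its median was 0.857 (quartiles 0.778 and 0.9) against 0.929 (0.875 and 0.952). The order held in each class of tag number: the medians of the p53-specific peaks were 0.818, 0.846, 0.88 and 0.891 from the weakest to the strongest class, and those of the shared peaks were 0.889, 0.917, 0.944 and 0.964. Among p53-specific peaks, those with an element had the lower focus ratio as well, with medians of 0.884 against 0.949 at 30 tags or more. Of the 644 peaks above the p53-KO limit, 107 had a focus ratio over 0.95, and 23.4% of these had an element, against 83.8% of the rest.

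Stacked tags moved with the high focus ratios. The deposited clonal fold change is the number of distinct tag positions expected over the number observed, and the lists stop at 2. Its median was 0.95 in p53-specific and 1.2 in shared peaks. A p53 element was present in 52.4% of p53-specific peaks with a value of at most 1 and in 37.8% of those from 1 to 1.2, but in 4.39% of those from 1.2 to 1.5 and in 5.07% of those above 1.5. There were 445 p53-specific peaks over 1.2, a value chosen after the data were seen, and their median focus ratio was 0.933. Above the p53-KO limit the element shares in the same 4 classes were 89.1%, 88.6%, 16.7% and 4.21%. The part of stacked tags in these differences was not tested.

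**Figure D4:**
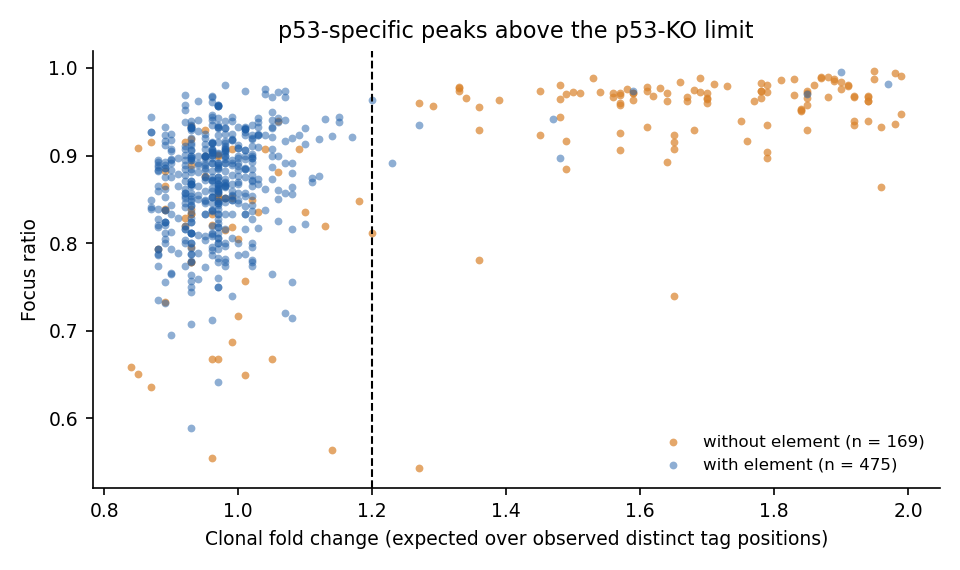
Focus ratio (vertical axis) against clonal fold change (horizontal axis) of the 644 p53-specific peaks above the p53-KO limit, with and without a p53 element. The dashed line marks a clonal fold change of 1.2, to the right of which few peaks have an element and most focus ratios are above 0.9.

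None of the 10 strongest p53-specific peaks was in a promoter. The first by normalized tag count was in intron 7 of THSD4, at 1186.2 normalized tags, with a clonal fold change of 1.9 and its best element 62.5 bp from the centre. Next came 3 peaks of 905.4 each (exact Poisson interval 804 to 1016), at CDKN1A, 46457 bp downstream of the TSS of IER5, an immediate early gene, and 312431 bp downstream of that of SARAF, a regulator of store-operated calcium entry. The peaks assigned to RASGEF1B (877) and SORL1 (798.2) had clonal fold changes of 1.95 and 1.79 and no element. They lay 148251 bp upstream and 313406 bp downstream of the respective TSS. The remaining 4 of the first 10 were assigned to ALOX5, MAP2K6, TGFA and METRNL. The first was in intron 7 of ALOX5, the lipoxygenase of leukotriene synthesis (779.2). The second lay 192664 bp downstream of the TSS of MAP2K6, a p38 kinase activator (763.5). The third lay 43278 bp upstream of that of TGFA, a ligand of the EGF receptor (675.1), and the last 148241 bp downstream of that of METRNL (656.2). All 4 had an element within 17.5 bp of the peak centre.

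By comparison, the 3 strongest shared peaks reached 14881.3, 10401.5 and 9316.2 normalized tags, at 21386, 15421.1 and 12307.7 in the overlapping p53-KO peaks. Their nearest genes were PLEKHG4B, ANHX and WASH6P. The best matches to the element had 9 and 8 mismatches in the first and second, and the reference is masked at the third. Masked bases were present in 5 p53-specific and 17 shared peaks. The first and second of the 3 strongest p53-KO peaks were those of PLEKHG4B and ANHX, and the third reached 13970.2 at the end of chromosome X. These 3 lay within 11261 bp of a chromosome end.

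Of the 3550 p53-specific peaks, 331 (9.32%, 95% Wilson interval 8.41 to 10.3) were in promoters, taken as 2 kb on either side of the canonical TSS of a protein-coding gene. The share was 3.65% of shared peaks, and promoters make up 2.40% of these chromosomes. Of the rest, 43 p53-specific peaks (1.21%) were in exons, 1367 (38.5%) in introns and 1809 (51.0%) were intergenic. The median distance to the nearest protein-coding TSS was 49800 bp, against 80698 bp for shared peaks, and 34.3% were more than 100 kb away.

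Promoter peaks were weaker and less often carried an element than the rest. Their median was 25.2 normalized tags, their median focus ratio was 0.795 and 31.7% had an element, against 45.4% in introns and 46.2% in intergenic sequence. Their median GC content was 62.1%, against 45.8% outside promoters. Promoter peaks overlapped an ATF3-CPT peak in 44.7% of cases, against 16.1% outside promoters. There were 52 genes with a promoter peak above the p53-KO limit, and at 38 of them such a peak had an element. Promoters named after their values were seen include RPS19, a ribosomal protein of the small subunit (381.7), and PTCHD4, a patched-domain protein (142), whose element had 0 mismatches.

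The p53-specific peaks were nearest to 2822 protein-coding genes, of which 528 were nearest to 2 or more peaks and 34 to 4 or more. Peaks above the p53-KO limit were nearest to 595 genes. Known targets were then read from a list of 68 p53 target genes in 6 groups. The region of a gene ran from 20 kb before its TSS to its end. It held a p53-specific peak at 50 of the 68, against 10.8% of all 20136 protein-coding genes. It held a peak above the p53-KO limit at 29 of them, against 2.11% of all genes. The median length of the regions searched was 49828 bp for listed genes and 45482 bp for all genes. The list was drawn up with earlier results of these data known and the genes are known p53 targets, so these counts are a description.

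Of the 10 growth arrest genes, 9 had a p53-specific peak and 7 had one above the limit. CDKN1A had 3. Beside the distal peak of 905.4 there was a peak of 126.2 normalized tags 11469 bp upstream of the TSS, with 1 mismatch, and a peak of 113.6 in intron 1, 3922 bp downstream, with 3 mismatches. All 3 were above the limit, and no p53-KO peak lay in the region. GADD45A, which binds PCNA and p21 and slows the cell cycle, had a peak of 466.9 in intron 3, 1566 bp downstream of its TSS. GDF15, a secreted stress cytokine, had its strongest peak 12195 bp upstream (252.4). PLK2, a polo-like kinase, had one 2197 bp upstream (242.9) whose element matched with 0 mismatches. PLK3, its paralogue, had one at 154.6, and BTG2, an antiproliferative cofactor of mRNA deadenylation, one at 104.1. E2F7 was the seventh gene above the limit, and SESN2 had no p53-specific peak.

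Of 18 apoptosis genes, 13 had a p53-specific peak and 8 had one above the limit. The strongest was at TRIAP1, an inhibitor of apoptosome formation, with 460.6 normalized tags and its centre 20 bp from the TSS, although its best element had 4 mismatches. This peak also overlapped a peak called with the ATF3 antibody in ATF3-knockout (ATF3-KO) cells. The same held for 10 of the 653 p53-specific peaks above the limit (1.53%). BBC3, which encodes the BH3-only protein PUMA, had peaks of 217.7 and 119.9 at 144 bp and 1376 bp upstream of the TSS, with 3 and 2 mismatches. The death receptor gene TNFRSF10B reached 217.7 in intron 1. AEN, an apoptosis-enhancing nuclease, reached 183, PHLDA3, a repressor of AKT, 167.2, and BAX, the pore-forming protein of the mitochondrial outer membrane, 126.2 at 351 bp downstream of its TSS. ZMAT3 and PIDD1 were also above the limit. TP53I3, FDXR, PERP, BID and TP53AIP1 had no p53-specific peak, and the region of TP53I3 held 1 shared peak.

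Among the feedback regulators, 5 of 8 genes had a p53-specific peak and 3 had one above the limit. MDM2 had a peak of 258.7 normalized tags in intron 1, 795 bp downstream of the TSS, where its internal promoter is known to lie, and a second of 25.2 at 7940 bp upstream. MDM4, the MDM2 paralogue that inhibits p53, had a peak of 82 located 6854 bp upstream, and TRIM32, an E3 ligase, one of 78.9. RCHY1, TP73 and SIAH1 had none. All 7 DNA repair genes reported here had a p53-specific peak, and 4 had one above the limit. These were RRM2B, the p53-inducible ribonucleotide reductase subunit (306), REV3L, the catalytic subunit of DNA polymerase zeta (261.9), DDB2, a damage sensor of nucleotide excision repair (195.6), and PCNA, the replication clamp (85.2).

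Metabolism and autophagy genes had the fewest. A p53-specific peak was found at 3 of 10, and those of GPX1, a glutathione peroxidase (135.7), and TIGAR, a fructose bisphosphatase (88.3), were above the limit. GLS2, SCO2, ALDH4A1, PRKAB1, DRAM1, ULK1 and FUCA1 had none. Of 14 other known targets, 12 had a p53-specific peak and 5 had one above the limit. They were RPS27L, a ribosomal protein paralogue (444.8), KITLG, the ligand of the KIT receptor (366), IGFL3 (340.7), the actin-severing protein GSN (331.3) and the tripartite motif gene TRIM22 (113.6). NINJ1 and EDA2R had none. At genes without a listed peak, binding was not detectable at this depth.

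**Figure D5:**
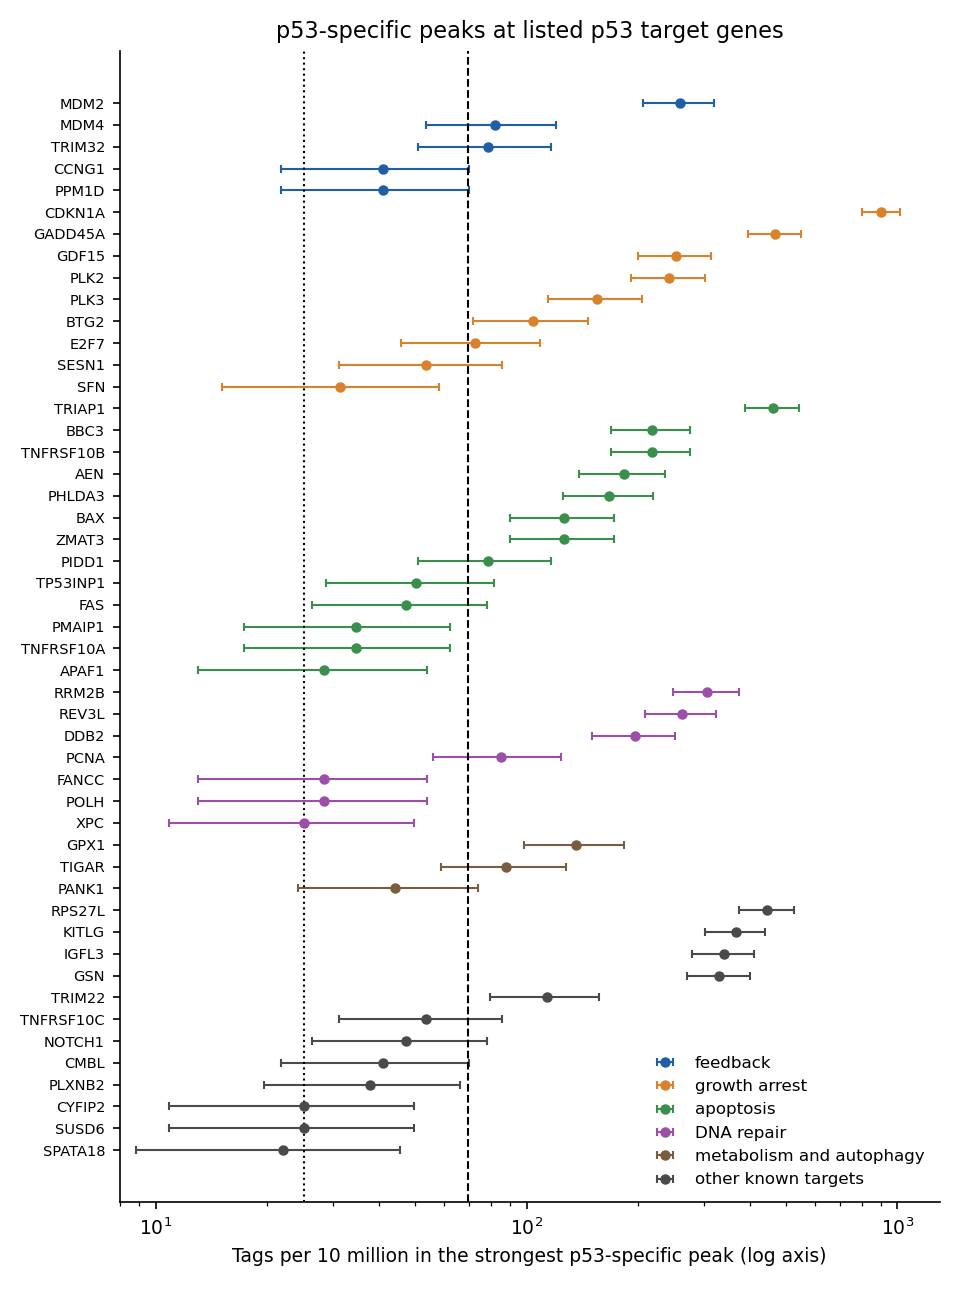
Tags per 10000000 (horizontal log axis, bars are exact 95% Poisson intervals) of the strongest p53-specific peak at listed genes that had one, grouped by function. The dotted line marks 25.2 and the dashed line 69.4, and the 29 genes at or right of the dashed line are above the p53-KO limit.

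Of the strongest peaks at these 50 genes, 35 had an element with at most 3 mismatches, and their strengths ran from 22.1 to 905.4 normalized tags with a median of 83.6. The ATF3 libraries were precipitated with an antibody against the stress-induced transcription factor ATF3. Of 3600 p53-specific peaks, 683 (18.97%) overlapped a peak of camptothecin-treated cells (ATF3-CPT). A peak of ATF3-KO cells, which received no camptothecin, was overlapped by 130 (3.61%). For shared peaks these shares were 4.99% and 3.15%. The ATF3-CPT and ATF3-KO libraries differed in both genotype and treatment, so their contrast alone does not separate these. The ATF3-Ctrl library came from cells with wild-type ATF3 that received no camptothecin. Its peaks overlapped 406 p53-specific peaks (11.3%) and 4.06% of shared peaks. The overlap with the treated cells was alike for p53-specific peaks with an element (18.95%) and without (18.61%). The overlap with ATF3-Ctrl was 7.45% with an element and 13.9% without, and that with ATF3-KO was 0.190% and 5.74%. The AP-1 site TGANTCA with C or G as its middle base, searched on both strands, was present in 35.3% of p53-specific peaks that had an element and overlapped an ATF3-CPT peak. It was present in 4.05% of those that had an element and did not overlap one, and in 5.27% of the flanking sequences of all p53-specific peaks.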

How the data were processed

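Peak lists of 5 ChIP-seq libraries of HCT116 cells were used, mainly p53-CPT and p53-KO. Per the submitters' processing notes, reads were aligned with BWA 0.6.1 to hg19, and the authors used HOMER 4.1 for peak calling, 1 library at a time. Per the file headers, at most 1 tag per bp was considered when peaks were found, with tag thresholds of 7 (p53-CPT) and 6 (p53-KO) for a false discovery rate of 0.001 and a minimum of 4-fold enrichment over the surrounding 10000 bp. Normalized tag counts were deposited as a signal per 10000000 tags. The authors also deposited a score, a focus ratio (a fraction of tags), and ratios, namely the fold over the local region and the clonal fold change. Their p-values over the local region were not used. Tags were recovered as normalized tag count times library total over 10000000 and lay within 0.016 of a whole number.

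Peaks sharing at least 1 bp counted as overlapping. The peak centre was assigned to the nearest canonical TSS of a protein-coding gene in GENCODE release 44 lifted to GRCh37, promoters first, then exons, introns and intergenic sequence. Elements were searched in the reference with at most 3 mismatches. With 1 library per condition no test between conditions was possible, and 95% intervals (Wilson for shares, exact Poisson for tags, exact conditional for ratios) cover counting error only. Members and gene lists were chosen with earlier results of these data known. Named genes are the 10 strongest p53-specific peaks, the listed genes above the p53-KO limit with values for up to 6 per list, listed genes without a peak (1 listed gene is counted but not reported by name here), the 3 strongest shared and p53-KO peaks, and MDM2, BBC3, BAX, CDKN1A, GADD45A, GDF15, GSN and IGFL3; others were named after their values were seen. The overlap rule, background, promoter width, gene types, mismatches, limit and listed region were varied. The element search was tested on simulated sequences. The spacer, AP-1 and repeated-copy searches were added after the data were seen. Python 3.11.15, NumPy 2.4.6, SciPy 1.17.1, pandas 2.3.3, pysam 0.24.0 and samtools 1.23.1 were used.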

Additional observations from a re-analysis of the deposited data

How the results depend on the processing

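Of 33 alternatives, 17 left a value the same within its error (counts within 1.5 times) and 16 moved it. With a score of at least 10 there were 1724 p53-specific peaks; the other alternatives gave 3470 to 3821. The last was with a clonal fold change of at most 1.2 in both lists, where 6004 p53-CPT peaks were left and the p53-specific share was 63.6%. The removal of p53-KO peaks adds to that count, since 3149 of the 3600 p53-specific peaks had such a value. The median strength was 28.4 normalized tags with tags taken from the score and 28.4 with a clonal fold change of at most 1.2. A ratio of at least 4 with no interval left 408 peaks above the p53-KO limit. The promoter share was 7.30% within 1 kb, 16.3% with genes of every type, 14.7% with the TSS of every transcript, and 8.23% above the limit. The element share was 32.2% with at most 2 mismatches, 61.3% with at most 4 (35.0% in flanking sequence), 73.8% above the limit and 50.3% with a clonal fold change of at most 1.2. The median focus ratio was 0.889 above the limit and 0.833 with a clonal fold change of at most 1.2. Overlap with ATF3-CPT was 25.9% within 500 bp and 24.04% above the limit. The clonal and every-transcript alternatives, 6 in all, were chosen after seeing the data. No paired analysis was possible because there was 1 library per condition. The p53-KO library was the smaller, so p53-specific means unlisted there, not absent. The lists hold no unlisted sites, so levels under the thresholds are unknown, and no replicate error can be given.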

Other observations

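Among the 50 strongest p53-specific peaks, 6 (12%) lay within 100 kb of a chromosome end, where 0.155% of the bases are. Among the 50 strongest shared peaks it was 10 (20%). Of the 12 p53-specific peaks of any strength there, 8 held the same element with 2 mismatches. Their nearest genes were METRNL, MZF1, RABL2B, PRMT2, CHAMP1, PGBD2, FRG2B and ZNF595, on chromosomes 17, 19, 22, 21, 13, 1, 10 and 4, and a ninth copy lay near RABL2A on chromosome 2, in the region where ancestral chromosome ends are known to have fused. The element is shown with the core bases in capitals, read from GRCh37 in the orientation of the copy at chr17:81185723-81185742.
Subtelomeric element: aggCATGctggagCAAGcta
The 100 bases around it were identical to the METRNL copy at 96 to 99 of 100 positions in the other 8. Strengths ran from 656.2 normalized tags at METRNL to 132.5 at ZNF595. How reads were divided among copies this alike was not tested, so the strengths of single copies are uncertain. At the other 4 p53-specific peaks within 100 kb of an end, strengths were 18.9 to 28.4 and at most 31 of these 100 positions were identical.

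A second repeated group lay at REXO1L1, a gene of a tandem array. All 12 p53-specific peaks nearest to it were above the p53-KO limit, at 75.7 to 186.1 normalized tags, and each held an element with 2 mismatches. There were 2 distinct element sequences among them over 260408 bp, with the same limit on placing reads. CCNG2, a cyclin G gene, had the nearest TSS to 3 peaks, from 123 to 312.3, with elements of 0 or 1 mismatch. All 3 lay more than 100 kb downstream of that TSS, so they are not placed at CCNG2 itself. On chromosome Y, by contrast, 12 p53-specific peaks were nearest to USP9Y, 0 of them had an element and 1 was above the limit.

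There were 58 p53-specific peaks above the limit with a clonal fold change of at most 1.2 and no element at the cut of 3 mismatches. Some had a match with 4 mismatches close to the peak centre, as at REV3L (7.5 bp). In others such a match lay far from it, as at EI24 (124.5 bp). The strongest of these peaks were in an intron of CASZ1 (517.4) and at the promoter of TRIAP1 (460.6), where an ATF3-KO peak was also called. An intron of ATF3 held one of 375.4, whose best match had 4 mismatches, and it overlapped an ATF3-CPT peak. That ATF3 peak and the KITLG peak (366) were among the 5 strongest.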
